A study of Mus musculus with 2 samples.

Results

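The genes described here are 10 mouse microRNA genes that make miR-137, miR-153, miR-218, miR-135 and miR-7, a group of microRNAs known for their place in neurons and their synapses. They were taken by gene symbol from the GENCODE M21 annotation: Mir137, Mir153, Mir218-1, Mir218-2, Mir135a-1, Mir135a-2, Mir135b, Mir7-1, Mir7-2 and Mir7b. They are 10 of the 2202 microRNA genes counted. The samples are left cerebral cortex of male mice labelled 5xFAD/CAST, 8 to 10 months old, from which RNA below 30 bases was sequenced. 5xFAD is a transgenic model of amyloid deposition whose transgenes are driven in neurons by the Thy1 promoter, and CAST names an inbred strain derived from wild mice. Whether the animals sampled carried the transgenes is not in the labels. There is 1 group of 2 libraries, biological replicates 1 and 2, and no control group, so every comparison below sets one library of this group against the other. Although numbered as biological replicates, both carry one donor identifier, and the labels do not state whether they came from different animals. The p-values therefore measure the difference between these libraries, which may be technical.

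A microRNA is cut from a hairpin precursor, and one arm, the guide, is loaded into an Argonaute protein and pairs with messenger RNAs mainly through its seed, bases 2 to 8. miR-137 is known for its part in neuronal maturation and in the release of synaptic vesicles, and the human gene lies in a region associated with schizophrenia. miR-153 is known to repress genes of vesicle fusion and, in human cells, App. miR-218 is best known from mouse motor neurons, miR-135a from mouse serotonin neurons, where it represses the serotonin transporter, and miR-7 from its many binding sites in the circular RNA Cdr1as.

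The guide sequences are shown first because the loci are compared below by the guides they share. They are given as RNA, 5′ to 3′, from RefSeq (GRCm38.p6, the mm10 assembly), with the seed in capitals. For miR-135b-5p, the guide of Mir135b, only the name is given.
miR-137-3p: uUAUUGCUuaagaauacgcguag
miR-153-3p: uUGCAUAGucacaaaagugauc
miR-218-5p: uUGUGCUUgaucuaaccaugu
miR-135a-5p: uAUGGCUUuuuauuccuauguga
miR-7a-5p: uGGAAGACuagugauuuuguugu
miR-7b-5p: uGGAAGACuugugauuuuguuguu
The 6 guides hold 5 seeds, since miR-7a-5p and miR-7b-5p share theirs. Counted from the 5′ end, miR-7b-5p differs from miR-7a-5p by A10U, outside the seed, and has 24 bases against 23. miR-218-5p lies in both Mir218-1 and Mir218-2, miR-135a-5p in both Mir135a-1 and Mir135a-2, and miR-7a-5p in both Mir7-1 and Mir7-2. miR-137-3p, miR-153-3p and miR-7b-5p each occur in 1 annotated microRNA gene. Outside the 10 genes, the only RefSeq microRNA with one of these seeds was miR-7002-3p, with that of miR-218, and its gene Mir7002 had 2 reads in replicate 1 and 6 in replicate 2.

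The paired loci are told apart by their 3p arms, which are shown for that reason with bases 2 to 8 again in capitals. Each of them occurred in 1 annotated microRNA gene.
miR-218-1-3p: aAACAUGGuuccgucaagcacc
miR-218-2-3p: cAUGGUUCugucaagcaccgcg
miR-135a-1-3p: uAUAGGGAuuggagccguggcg
miR-135a-2-3p: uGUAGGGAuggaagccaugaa
miR-7a-1-3p: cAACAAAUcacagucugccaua
miR-7a-2-3p: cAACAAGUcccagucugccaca
The deposited table counts whole precursor genes, so reads of the 5p and the 3p arm that match 1 place are added together. At the paired loci a read of the guide alone matches both loci. Reads that match several places enter no gene's count.

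The reads assigned to the sense strand of microRNA genes numbered 4929428 in replicate 1 and 4441328 in replicate 2. Levels are these counts scaled to 1000000 per library (CPM), so that 1 read is worth 0.203 and 0.225 CPM. They were not divided by length, since the mature arms of the 10 genes have 21 to 24 bases. For each assigned read there were 1.28 and 1.26 that matched several places and that no gene's count includes. The tissue held the microRNAs of neurons, with 22 of 24 other neuronal genes detected at 7.30% and 9.23% of the reads in replicates 1 and 2, and those of other brain and blood cells. Of the 22 neuronal genes, 12 were lower in replicate 2 and 5 were higher, among them Mir132 (19682 and 44698 CPM). The background over the 417 detected genes was 34.5% lower and 24.7% higher. Oligodendrocyte genes took 0.339% of the reads in replicate 1 and 0.562% in replicate 2 (3 of 4 detected, Mir219b without a read). Astroglial genes took 4.05% and 3.06% (5 of 5), vascular genes 2.04% and 2.18% (3 of 3), and genes of microglia and leukocytes 0.193% and 0.208% (5 of 5). Of the astroglial genes Mir23b (25038 and 14908 CPM) and Mir29a were lower in replicate 2, and Mir27b and Mir29b-1 were higher. Vascular genes (2 higher in replicate 2 and 1 lower) and those of microglia and leukocytes (1 higher and 2 lower) were also mixed. Genes of the choroid plexus took 0.200% and 0.151% (5 of 5), where Mir34c was higher in replicate 2 (242 and 711 CPM) and the other 4 lower. Red blood cell genes took 0.0602% and 0.00885% (3 of 3). Of the last, Mir451a (529 and 52.2 CPM) and Mir144 (57.8 and 6.30 CPM) were lower in replicate 2 and Mir486 (15.0 and 29.9 CPM) was higher. The part of cell composition in the differences between the libraries was not tested, and fewer cells of a type cannot be told apart from less RNA per cell.

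All 10 genes were detected, with at least 10 reads in each library, against a background of 18.9% of the 2202 annotated genes. Together they took 1.67% of the assigned reads in replicate 1 (exact 95% binomial interval 1.66 to 1.68%) and 0.925% in replicate 2 (0.916 to 0.934%), 1.30 ± 0.529% on average (SD, n = 2). The intervals cover counting error only. Without Mir137 and Mir153 the remaining 8 genes took 0.275% and 0.263%, so the gap between the libraries lay almost wholly in those genes. The median level of the 10 genes as log2(CPM + 1) was 6.65 ± 0.07 (SD, n = 2), beside 6.55 ± 0.12 for the 417 detected genes. In assigned reads the group thus straddled the middle of the detected microRNAs. By mean CPM 5 of its genes lay above the median detected gene, and Mir135b was that median gene. Reads of the guide alone at the paired loci are left out of these levels.

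**Figure D1:**
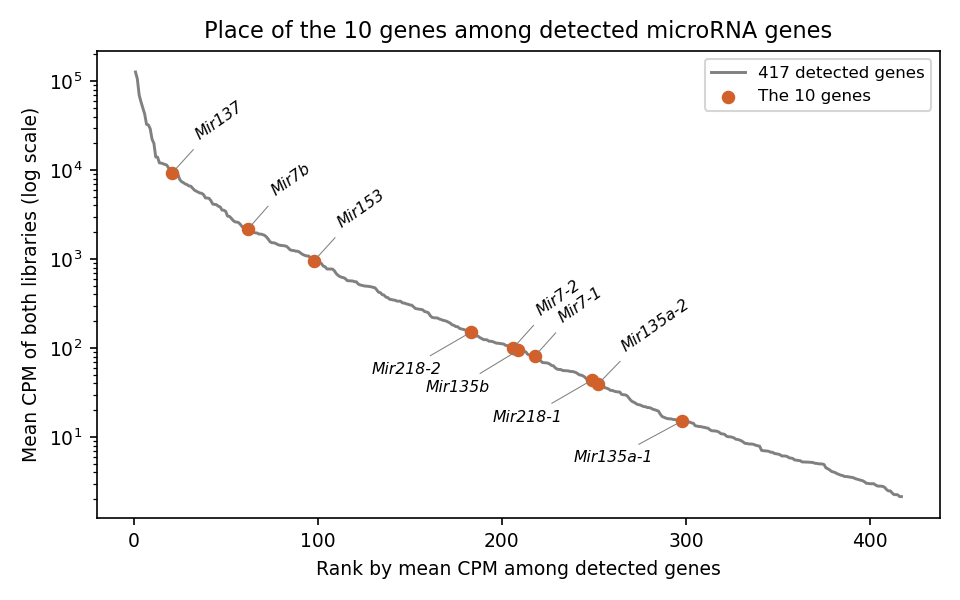
Mean CPM of both libraries (log axis) against rank for the 417 detected microRNA genes (grey line), with the 10 genes as orange points. Mir137 stands at rank 21, Mir7b at 62 and Mir153 at 98, and the other 7 lie between ranks 183 and 298.

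Mir137 was the most abundant of the group. It had 60819 reads (12338 CPM) in replicate 1 and 28205 reads (6351 CPM) in replicate 2, a mean of 9344 ± 4234 CPM (SD, n = 2). It was the 17th most abundant microRNA gene in replicate 1 and the 33rd in replicate 2. It alone supplied 73.7% (73.4 to 74.0%) of the reads of the 10 genes in replicate 1 and 68.7% (68.2 to 69.1%) in replicate 2. The gene lies at chr3:118433857-118433929 on the plus strand (mm10), inside an exon of the non-coding RNA gene Gm26871. The only other microRNA gene within 50 kb, Gm24155, 0.791 kb downstream on the same strand, had no read in either library, which allows levels of up to 0.609 and 0.675 CPM (3 counts, counting error only). Its hairpin is shown with the guide arm miR-137-3p in capitals.
Mir137: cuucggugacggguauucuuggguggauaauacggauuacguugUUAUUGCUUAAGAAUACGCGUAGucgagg
The log2 ratio of replicate 2 to replicate 1 was -0.96 (exact 95% interval -0.98 to -0.94), a 1.94-fold lower level in replicate 2, just short of the 2-fold rule used below.

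Mir153 differed most between the libraries. It had 8099 reads (1643 CPM) in replicate 1 and 1206 reads (272 CPM) in replicate 2, and with a mean of 957 ± 970 CPM (SD, n = 2) its spread was as large as its level. Its rank went from 72 in replicate 1 to 149 in replicate 2. The log2 ratio was -2.60 (-2.69 to -2.51), 6.05-fold, the 6th widest of the 417 detected genes, whose median gene was 1.29-fold apart. Mir153 lies at chr12:117250817-117250885 (plus strand) within an intron of Ptprn2, which encodes a membrane protein of dense-core secretory vesicles. The capitals in its hairpin mark miR-153-3p.
Mir153: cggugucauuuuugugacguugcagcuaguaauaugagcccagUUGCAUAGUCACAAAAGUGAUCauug
Neither the Mir137 nor the Mir153 precursor shares a run of 20 bases with another annotated microRNA gene. Their longest shared runs were 11 and 10 bases. The rest of the genome was not searched for matches.

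**Figure D2:**
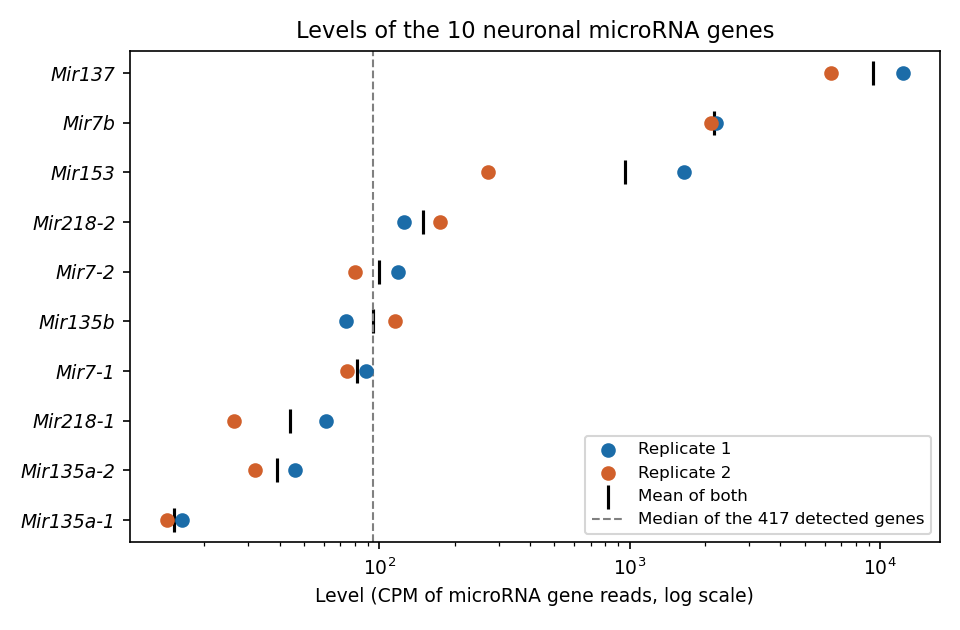
Level of each of the 10 genes in CPM (log axis) in replicate 1 (blue) and replicate 2 (orange), with the mean of both as a black bar and the median of the 417 detected genes as a dashed line. The points of Mir153 are the widest apart, at 1643 and 272 CPM, and those of Mir7b nearly coincide, at 2221 and 2108 CPM.

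In the miR-7 family 1 locus held almost all assigned reads. Mir7b had 10949 reads (2221 CPM) in replicate 1 and 9362 reads (2108 CPM) in replicate 2, a mean of 2165 ± 80.1 CPM (SD, n = 2), the steadiest of the group with a coefficient of variation of 3.70%. Mir7-2 had 586 reads (119 CPM) and 354 reads (79.7 CPM). Mir7-1 had 438 reads (88.9 CPM) and 331 reads (74.5 CPM). Mir7b thus took 91.4% (90.9 to 91.9%) of the family's assigned reads in replicate 1 and 93.2% (92.7 to 93.7%) in replicate 2, or 10.7 and 13.7 times the reads of Mir7-1 and Mir7-2 together. Mir7b lies at chr17:56242988-56243098 on the plus strand and Mir7-2 at chr7:78888277-78888373 on the plus strand, both with no overlapping annotated gene, and Mir7-1 at chr13:58392779-58392886 (minus strand) within an intron of Hnrnpk, which encodes an RNA-binding protein. Mir7-1 and Mir7-2 share a run of 24 bases that holds the whole of miR-7a-5p. Reads within that run match both loci and enter neither count. The longest run that Mir7b shares with any annotated microRNA gene is 14 bases. How many mismatches a read could hold is given neither in the labels nor in the notes deposited with the table. Whether reads of miR-7a-5p, which is 1 base away, entered the count of Mir7b was not tested. Mir671, whose product is known to direct the cutting of Cdr1as, stood at 1943 CPM in replicate 1 and 2060 CPM in replicate 2, a level close to that of Mir7b.

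The miR-218 loci differed between the libraries in opposite directions. Mir218-2 had 619 reads (126 CPM) in replicate 1 and 776 reads (175 CPM) in replicate 2, and Mir218-1 had 302 reads (61.3 CPM) and 117 reads (26.3 CPM). The log2 ratio was 0.48 (0.32 to 0.63) at Mir218-2 and -1.22 (-1.54 to -0.91) at Mir218-1. Mir218-2 was the higher locus in both libraries, with 67.2% (64.1 to 70.2%) of the reads of the pair in replicate 1 and 86.9% (84.5 to 89.0%) in replicate 2, and these intervals do not overlap. Together the loci stood at 187 CPM in replicate 1 and 201 CPM in replicate 2, a log2 ratio of 0.11 whose interval, -0.03 to 0.24, spans 0. Mir218-1 lies at chr5:48223942-48224051 (plus strand) within an intron of Slit2, and Mir218-2 at chr11:35616816-35616925 (plus strand) within an intron of Slit3. Both hosts encode secreted axon guidance proteins that bind Robo receptors, and miR-218 is known to repress Robo1. The precursors share a run of 22 bases that holds miR-218-5p. Reads within it match both loci and enter neither count.

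The miR-135 family had the lowest summed level of the 5 in assigned reads, at 136 CPM in replicate 1 and 162 CPM in replicate 2. Mir135a-1 and Mir135a-2 share a run of 24 bases that holds miR-135a-5p. Reads within it match both loci and enter neither count. The family sums are thus unlike measures, since miR-137-3p and miR-153-3p are not shared between annotated loci. Mir135b had 362 reads (73.4 CPM) in replicate 1 and 515 reads (116 CPM) in replicate 2, a log2 ratio of 0.66 (0.46 to 0.86). Mir135a-2 had 228 reads (46.3 CPM) and 141 reads (31.7 CPM), a log2 ratio of -0.54 (-0.86 to -0.23). Mir135a-1, with 80 reads (16.2 CPM) and 63 reads (14.2 CPM), was the least abundant of the 10 genes, and its log2 ratio of -0.19 (-0.69 to 0.30) did not pass the test. Mir135b held 54.0% (50.2 to 57.9%) of the family's assigned reads in replicate 1 and 71.6% (68.2 to 74.9%) in replicate 2. Here too the balance of assigned reads between loci differed beyond counting error. Reads of miR-135a-5p alone are not in these totals, so the part of Mir135b in all miR-135 is not known. Within the pair that shares miR-135a-5p the balance did not separate: Mir135a-2 held 74.0% (68.7 to 78.8%) and 69.1% (62.3 to 75.4%) of its reads. Mir135b lies at chr1:132198088-132198184 (plus strand) within an intron of Lemd1. Mir135a-2 lies at chr10:92072086-92072185 (minus strand) within an intron of Rmst, a long non-coding RNA known from neuronal differentiation. Mir135a-1 lies at chr9:106154124-106154213 (plus strand), within an intron of the non-coding D030055H07Rik and over an exon of Glyctk on the other strand. Mirlet7g, 24.6 kb away on the same strand, stood at 106077 ± 8270 CPM (SD, n = 2), against 15.2 ± 1.45 CPM at Mir135a-1.

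**Figure D3:**
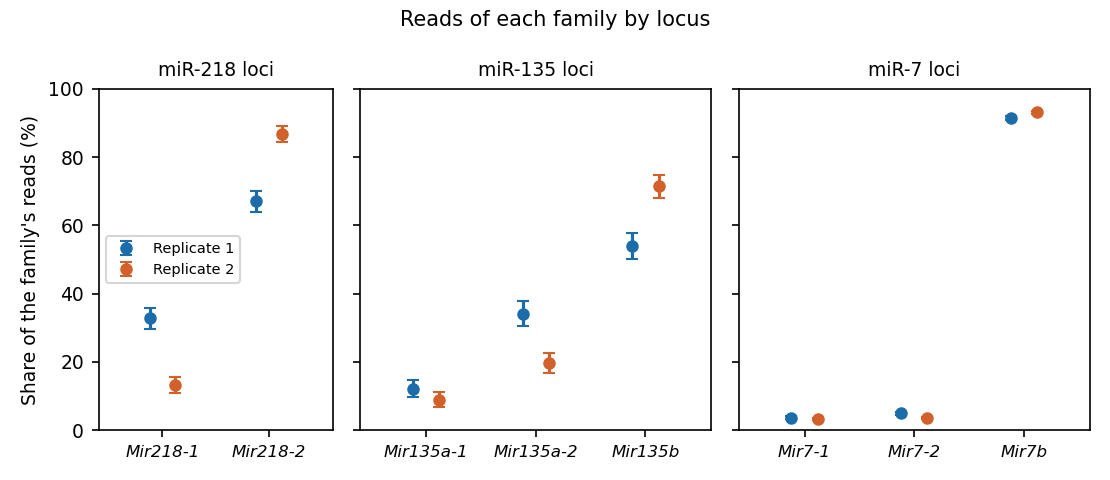
Share of each family's assigned reads (percent) at each locus of miR-218, miR-135 and miR-7, in replicate 1 (blue) and replicate 2 (orange), with exact 95% binomial intervals. Mir218-2 goes from 67.2% to 86.9% and Mir135b from 54.0% to 71.6%, while Mir7b holds over 91% in both libraries.

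By assigned reads, genes with a private guide lay above those that share theirs, with Mir135b as the exception. The 6 loci whose precursor shares a run of 20 bases with their partner (Mir218-1, Mir218-2, Mir135a-1, Mir135a-2, Mir7-1 and Mir7-2) had mean levels between 15.2 and 150 CPM and took 0.0457% and 0.0401% of the assigned reads. The other 4 lay between 94.7 and 9344 CPM and took 1.63% and 0.885%. The same split over all detected genes ran the other way, with a median of 173 CPM for the 104 genes that share a run of 20 bases with another annotated microRNA gene on either strand and 63.0 CPM for the 313 that do not. Over all annotated genes 9.18% of the former and 29.3% of the latter were detected. Reads that match several places are left out of every gene's count, among them reads of the guide alone at the paired loci. Levels of the paired loci and of the other 4 are thus unlike measures. The part of the left-out reads in the low levels of the paired loci was not tested.

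In order of mean CPM the genes ran Mir137, Mir7b, Mir153, Mir218-2, Mir7-2, Mir135b, Mir7-1, Mir218-1, Mir135a-2 and Mir135a-1. This order is of assigned reads, so a step between a paired locus and another gene, such as Mir153 and Mir218-2, compares unlike measures. Of the 9 steps in this order, 6 had levels that did not overlap between the libraries. Mir7-2 and Mir135b, Mir135b and Mir7-1, and Mir218-1 and Mir135a-2 changed places between the libraries and are not separated. Mir137 stood 5.55-fold above Mir7b in replicate 1 and 3.01-fold in replicate 2. Mir153 stood 13.1-fold above Mir218-2 in replicate 1 and 1.55-fold in replicate 2, and Mir7b stood 1.35-fold and 7.76-fold above Mir153, so the size of both steps rests on the library.

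For each gene the reads of the libraries were set against each other in an exact binomial test, two-sided and adjusted over the 417 detected genes by Benjamini-Hochberg with a threshold of 0.05. It compares these libraries and not conditions, and holds counting error alone. Of the 10 genes 9 differed, against a background of 59.2% of the detected genes. A minimum of 100 reads per library is met by 9 of the 10, all of which differed. The background among genes that meet it was 80.4%. Mir218-2 and Mir135b were higher in replicate 2, 2 of 10 against a background of 24.7%. The other 7 were lower, against 34.5%. Mir153 and Mir218-1 differed at least 2-fold, both lower in replicate 2, where the background was 11.3% in either direction and 4.8% for lower genes. The median gene of the group was 1.47-fold apart, and 7 of the 10 were wider apart than the median detected gene.

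The smallest of these differences depended on the scaling. Mir7b, with a log2 ratio of -0.08 (-0.12 to -0.04, adjusted p = 0.00042 in the exact binomial test), moved to -0.03 with an adjusted p of 0.251 when TMM factors replaced the library totals in that exact test. Mir7-1, at -0.25 (-0.46 to -0.04, adjusted p = 0.0294, exact binomial test), moved to -0.21 with an adjusted p of 0.0833 in the same exact test. Mir7-2 kept its call under each of the scalings, and its log2 ratio was -0.58 (-0.77 to -0.38).

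**Figure D4:**
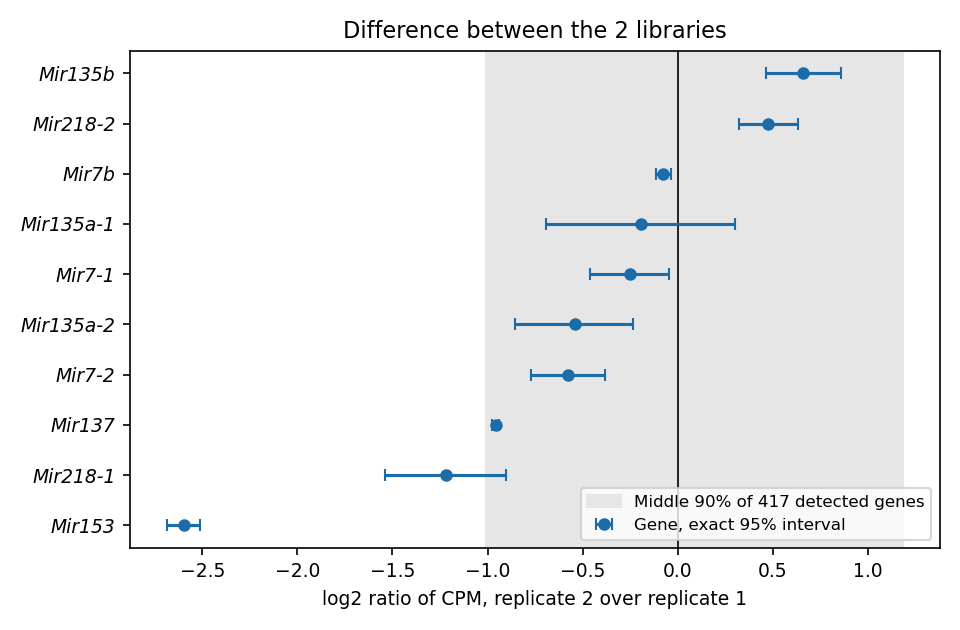
Log2 ratio of CPM, replicate 2 over replicate 1, for each of the 10 genes with its exact 95% interval, over a grey band that holds the middle 90% of the 417 detected genes (-1.01 to 1.18). Mir153 and Mir218-1 lie outside the band and Mir137, at -0.96, just inside it.

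In assigned reads, the list of 24 other neuronal genes was led by Mir132, whose transcription follows neuronal activity, Mir128-1 and Mir330. Mir132 stood at 19682 CPM in replicate 1 and 44698 CPM in replicate 2, and was thus higher in replicate 2, unlike Mir137. Mir128-1 stood at 13556 and 7493 CPM, a log2 ratio of -0.86 (-0.87 to -0.84) beside -0.96 for Mir137. Mir330 stood at 9071 and 8966 CPM and did not pass the test, with a log2 ratio of -0.02 (-0.04 to 0.00285). Of the 22 detected genes of that list 5 were higher in replicate 2, 12 were lower and 5 did not pass, and 1 differed at least 2-fold. The background over all detected genes was 24.7% higher, 34.5% lower and 11.3% at least 2-fold. The median log2 level of the list was 9.76 ± 0.18 (SD, n = 2), beside 6.65 ± 0.07 for the 10 genes. Its low end held Mir9-3 (mean 97.0 CPM), Mir9-1 (33.4 CPM), Mir124a-1 (3.48 CPM) and Mir9-2 (3.02 CPM). Mir124a-2 (1.70 CPM) and Mir124a-3 (0.304 CPM) were not detected. Reads that match several places enter neither the order nor the median of the list. The part of such reads in these low levels was not tested.

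None of the 10 genes had a read on the opposite strand in either library, and the count that ignores strand equalled the sense count at all 10.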

How the data were processed

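The deposited values are raw read counts per microRNA gene, made by the authors against mm10 and GENCODE M21 per the notes deposited with the files. Which aligner and counter were run, and how, is stated neither in the labels nor in those notes. The sense-strand counts were used. Unassigned reads stayed out of library totals: 25.6% of the reads of replicate 1 and 34.3% of replicate 2 were unmapped, and 38.5% and 33.0% matched several places.

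CPM, exact binomial tests and exact intervals were computed in Python 3.11.15 with SciPy 1.17.1. Detection asked for 10 counts in each library, and log2 levels used a pseudocount of 1 CPM. The test was checked on simulated counts. Alternatives were the column without strand, TMM factors (edgeR 4.0.16), size factors (DESeq2 1.42.0), all reads as the total, other count minimums and pseudocounts, and each library left out. Shared stretches of 20 bases were searched over the 2202 annotated precursors, all of which had a sequence, on both strands. RefSeq held sequences for all 10 genes, and each hairpin equalled the GENCODE one.

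The genes described and the lists were chosen with earlier results of these data known. Other genes are named if within 50 kb of one of the 10, sharing a guide seed, or nearest in level over both libraries. Genes leading or lowest in the other neuronal list and cell type markers are also named. Mir671 is named for its link to Cdr1as.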

Additional observations from a re-analysis of the deposited data

How the results depend on the processing

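All 10 genes kept the direction of their ratio under every scaling, strand and count minimum tried in which they were tested. The calls of Mir7b and Mir7-1 were lost under TMM factors, which left 7 of 10 differing. Scaling to all reads of the table, unassigned ones included, moved the median log2 ratio of the detected genes from -0.05 to -0.25. It left 9 genes differing, took Mir137 past 2-fold (log2 ratio -1.16, so that 3 genes passed that rule), and moved the summed share of reads from 1.30% to 0.372% and 9 of the 10 levels by more than their SD. In the column without strand 1 level, that of Mir7b, moved by more than its SD, to 2331 CPM. A pseudocount of 10 CPM moved the median log2 level from 6.65 to 6.78. Leaving out each library gave shares of 0.925 to 1.67%, median log2 levels of 6.60 to 6.70 and 10 genes detected, and cannot give a comparison of the libraries. With 100 counts asked of each library 9 genes were detected. With no control group, levels are those of these libraries alone. No paired analysis was possible because there is 1 group.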

Other observations

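For each of the 9 genes that had 100 or more reads per library, the microRNA gene outside the group that lay nearest in level over both libraries was found, as the Euclidean distance of log2(CPM + 1). Mir137 lay nearest to Mir128-1 (distance 0.27), another neuronal microRNA gene, and Mir7b to Mir485 (0.12), which stood at 2255 CPM in replicate 1 and 2294 CPM in replicate 2. Mir218-2 lay nearest to Mir496a (0.03), Mir218-1 to Mir539 (0.15) and Mir7-1 to Mir3072 (0.03). Mir135b lay nearest to Mir3068 (0.13), Mir7-2 to Mir7044 (0.19) and Mir135a-2 to Mir491 (0.27). Mir153 had no close neighbour: the nearest was Mir204 at a distance of 1.18, which stood at 1084 CPM in replicate 1 and 553 CPM in replicate 2. These distances rest on 2 libraries and describe levels only.

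The precursors of the group held less G and C than those of the detected genes, with a median of 46.1% against 52.0%. The detected genes were ranked by this content and divided into 3 near-equal parts. In the lowest part (28.4 to 47.4%), where 7 of the 10 lie, among them Mir137 (45.2%) and Mir153 (42.0%), the median log2 ratio between the libraries was -0.10. It was -0.06 in the middle part and 0.03 in the highest. Over all 417 detected genes the Spearman correlation of G and C content with the log2 ratio was 0.098. The part of base composition in the ratios of Mir137 and Mir153 was not tested. The miR-7a-2-3p and miR-7b-3p arms, from Mir7-2 and Mir7b, share bases 2 to 8, as the guide arms of these loci do, while miR-7a-1-3p from Mir7-1 does not share them.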
